A study of Mus musculus with 2 samples.

Results

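The Col2a1 Enpp2 state is a group of non-dividing glioma cells rich in transcripts of Col2a1, Enpp2, Acot1 and Serpina3n. It held 431 cells, 350 in the library labelled knockout and 81 in the library labelled wild type, out of 1639 tumour cells and 9685 kept cells of 15751 barcodes. A barcode was kept as a cell with at least 500 detected mouse genes and at most 10% mitochondrial UMIs, where a UMI (unique molecular identifier) counts 1 captured mRNA molecule. It was a tumour cell with at least 4 UMIs of Sox2, Nes, Hmga2 and Met together, at most 1 UMI of Ptprc, a gene of all leukocytes, and fewer than 5 UMIs of the neuroblast genes Dcx, Dlx1 and Dlx2. It was non-dividing with fewer than 8 UMIs of Cdc20, Ube2c, Ccnb1 and Cenpf per 10000. A non-dividing tumour cell joined the state when Col2a1, Enpp2, Acot1 and Serpina3n together reached at least 1 UMI per 10000 and exceeded both of 2 rival sums, that of Sncaip, Cntn1, Nts and Cadm2 and that of Tcim, Syt4, Dll3 and Reln. The measured values thus chose the members, and the levels of these genes are given as a description.

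The cells came from brain tissue of mice into which GL261 glioma cells had been implanted and which were harvested at day 24. GL261, an established mouse glioma line, takes in immune-competent C57BL/6 hosts. Hosts of the first library had the genotype label Cacna1H-/- and the title Cav3.2KO, for loss of the pore subunit of the T-type calcium channel Cav3.2, and hosts of the second were labelled C57BlL6 WT. Tumour and microenvironment were dissociated together and each group is 1 library of 10x Genomics single-cell 3' RNA, so no difference has a replicate check and none was tested. How many animals each library pools, the sources used here do not say. The deletion is in the host, and the implanted cells are of the same line in both groups. Levels are given as CPM, the UMIs of a gene per 1000000 mouse UMIs summed over a group of cells. Cacna1h went against the labels: kept cells had 168 UMIs, or 1.67 CPM (exact Poisson 95% interval 1.42 to 1.94), under the knockout label, and 13 UMIs, or 0.250 CPM (0.133 to 0.427), under the wild type label. Intervals here cover counting error only. State cells held 3 and 2 of these UMIs, the other non-dividing tumour cells 3 and 2, and dividing tumour cells 1 and 0. T and NK cells, which are host cells, held 58 under the knockout label and 0 under the wild type label. A 3' read checks the label only where the deletion takes that end of the gene, and the sources used here do not describe its extent; GL261 cells also carry their own Cacna1h. The libraries are therefore named by their labels throughout.

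Col2a1 encodes the chain of type II collagen, the fibrillar collagen of cartilage, and its best-known regulators are SOX9, SOX5 and SOX6. Enpp2 encodes autotaxin, a secreted enzyme that makes lysophosphatidic acid and that oligodendrocytes and their precursors produce in the brain. Acot1 encodes a cytosolic enzyme that splits acyl-CoA, Serpina3n a secreted protease inhibitor that reactive astrocytes make, and S100b a calcium-binding protein of astrocytes, oligodendrocyte precursors and gliomas. S100b marks the state but is not in its rule. In mm10, Col2a1 lies at chr15:97975602-98004695 and Enpp2 at chr15:54838901-54952892, both on the minus strand. On the plus strand lie Acot1 at chr12:84009490-84018371, Serpina3n at chr12:104406729-104414329 and S100b at chr10:76253853-76261159.

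RefSeq promoter windows, 250 bases before to 50 after the start in GRCm38.p6, were at hand for 3 of the 5 markers. They are shown because these genes are high together in the state, and capitals mark a match on either strand to ACAAAG or ACAATG, the short motifs of SOX factors, or to TTGGCA, a core site of NFI factors. The lines cover chr12:84009252-84009551, chr12:104406458-104406757 and chr10:76253586-76253885, all on the plus strand, 5′ to 3′.
Acot1: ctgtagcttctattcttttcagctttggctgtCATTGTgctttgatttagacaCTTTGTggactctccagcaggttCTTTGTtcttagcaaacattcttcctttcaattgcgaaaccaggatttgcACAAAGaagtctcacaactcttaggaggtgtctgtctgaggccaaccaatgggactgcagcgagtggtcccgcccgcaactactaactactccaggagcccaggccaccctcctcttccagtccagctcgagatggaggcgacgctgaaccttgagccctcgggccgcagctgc
Serpina3n: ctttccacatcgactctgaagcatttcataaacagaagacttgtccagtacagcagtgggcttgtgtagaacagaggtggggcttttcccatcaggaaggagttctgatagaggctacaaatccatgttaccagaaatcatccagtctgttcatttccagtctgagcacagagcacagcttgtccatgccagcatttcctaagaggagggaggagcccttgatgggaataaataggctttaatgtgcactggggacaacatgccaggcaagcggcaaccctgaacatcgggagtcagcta
S100b: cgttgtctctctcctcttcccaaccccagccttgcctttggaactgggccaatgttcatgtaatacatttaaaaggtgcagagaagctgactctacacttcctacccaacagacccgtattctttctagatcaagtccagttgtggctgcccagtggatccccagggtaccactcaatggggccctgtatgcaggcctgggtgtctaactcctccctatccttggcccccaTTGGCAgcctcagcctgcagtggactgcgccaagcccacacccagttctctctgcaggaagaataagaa
The Acot1 window held 3 matches to ACAAAG, at positions 54, 77 and 127, and 1 to ACAATG at position 33. The S100b window held 1 match to TTGGCA at position 232. The Serpina3n window held none of these, and none of the 3 windows held the STAT motif TTCNNNGAA. Of 32851 windows of this length, 18.7% held ACAAAG, 12.6% ACAATG, 14.1% TTGGCA and 8.30% TTCNNNGAA, so single matches are common.

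The knockout label had 8369 barcodes and 103281480 UMIs, of which 6575 barcodes were kept, and the wild type label had 7382 barcodes and 54567114 UMIs, of which 3110 were kept. State cells held 8383695 and 1883005 mouse UMIs, with medians of 22501 and 20729 per cell. The other non-dividing tumour cells, 512 and 408 in number, had medians of 29328 and 30432, so state cells were the shallower ones in both libraries. The median mitochondrial share of state cells was 1.67% under the knockout label and 1.93% under the wild type label. Malat1, a nuclear RNA, took 1.98% and 1.18% of the UMIs of state cells, against 1.27% and 0.604% in the other non-dividing tumour cells. The libraries shared 21 barcodes, and none of the 431 state cells had a barcode present in the other library. Sex-linked RNA of the hosts also differed. T and NK cells had 638 CPM of Xist and 53.9 CPM of 4 Y-linked genes under the knockout label, against 0 and 277 CPM under the wild type label. The knockout label thus held RNA of both kinds, and whether it pools hosts of both sexes was not tested. The balance of these sex-linked genes, genotype label and library cannot be told apart.

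Some members resembled host cells. A tumour cell was called host-like with at least 2 UMIs of Xist and the 4 Y-linked genes, which 81.3% and 63.6% of T and NK cells had, or with no UMI of Hmga2 and Met, 2 genes of the tumour gate. This held for 19 of the 350 members (5.43%) under the knockout label and 8 of 81 (9.88%) under the wild type label, beside 35 (6.84%) and 37 (9.07%) of the other non-dividing tumour cells. Of these members 12 and 6 carried at least 20 UMIs per 10000 of 8 oligodendrocyte markers, and 16 and 5 had no Col2a1 UMI. Without them 331 and 73 members remained, of which 4 and 10 also carried at least 20 UMIs per 10000 of those 8 markers. The 8 oligodendrocyte markers summed to 865 CPM in state cells and 289 CPM in the other cells under the knockout label, and to 1929 and 648 CPM under the wild type label. Without host-like cells the sums were 398 and 262 CPM, and 1148 and 590 CPM. The 7 endothelial markers summed to 55.3 and 71.0 CPM under the knockout label, and to 548 and 103 CPM under the wild type label, where they were 58.1 and 39.5 CPM without host-like cells. The 12 T and NK cell markers summed to at most 26.7 CPM in any of the 4 groups of tumour cells, against 7124 and 7903 CPM in T and NK cells. Results are given for all members, and the counts of calls in the lists below also without the host-like cells where those counts differ.

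Enpp2 was the most abundant of the rule genes in the state. It had 754 CPM in state cells and 131 CPM in the other non-dividing tumour cells of the library labelled knockout (interval of the first 735 to 773). Under the wild type label the values were 501 (470 to 534) and 94.7 CPM. Oligodendrocytes, called from their markers in the same libraries, had 873 and 777 CPM, so Enpp2 was at least as high in that host class as in the state.

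Col2a1 was high in the state, as the rule requires. It had 380 CPM (366 to 393) in state cells and 68.6 CPM in the other cells under the knockout label, and 413 CPM (385 to 443) and 39.4 CPM under the wild type label. Oligodendrocytes had 99.3 and 218 CPM, and T and NK cells 9.71 and 7.77 CPM. Of the rule genes, it was the one with the closest levels in the state between the 2 libraries.

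Serpina3n had 639 CPM (622 to 656) in state cells and 143 CPM in the other cells under the knockout label, and 449 CPM (419 to 480) and 131 CPM under the wild type label. Acot1 had 284 CPM (272 to 295) and 56.4 CPM under the knockout label, and 110 CPM (95.5 to 126) and 26.3 CPM under the wild type label. Acot1 was thus the rule gene whose level in the state differed most by label. Reads of Acot1 and its near-identical neighbour Acot2, and of Serpina3n and its cluster, may be split uncertainly between copies.

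S100b, which the rule did not use, followed the same order. It had 611 CPM (594 to 628) in state cells and 241 CPM in the other cells under the knockout label, and 246 CPM (224 to 269) and 84.7 CPM under the wild type label. The log2 ratio of state over other cells was 1.34 (1.28 to 1.40) and 1.54 (1.38 to 1.70). S100b was chosen as a marker with these cells, so this too is a description. Its level was also higher under the knockout label outside the state, so that the other cells there, at 241 CPM, were near the 246 CPM of state cells under the wild type label.

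**Figure D1:**
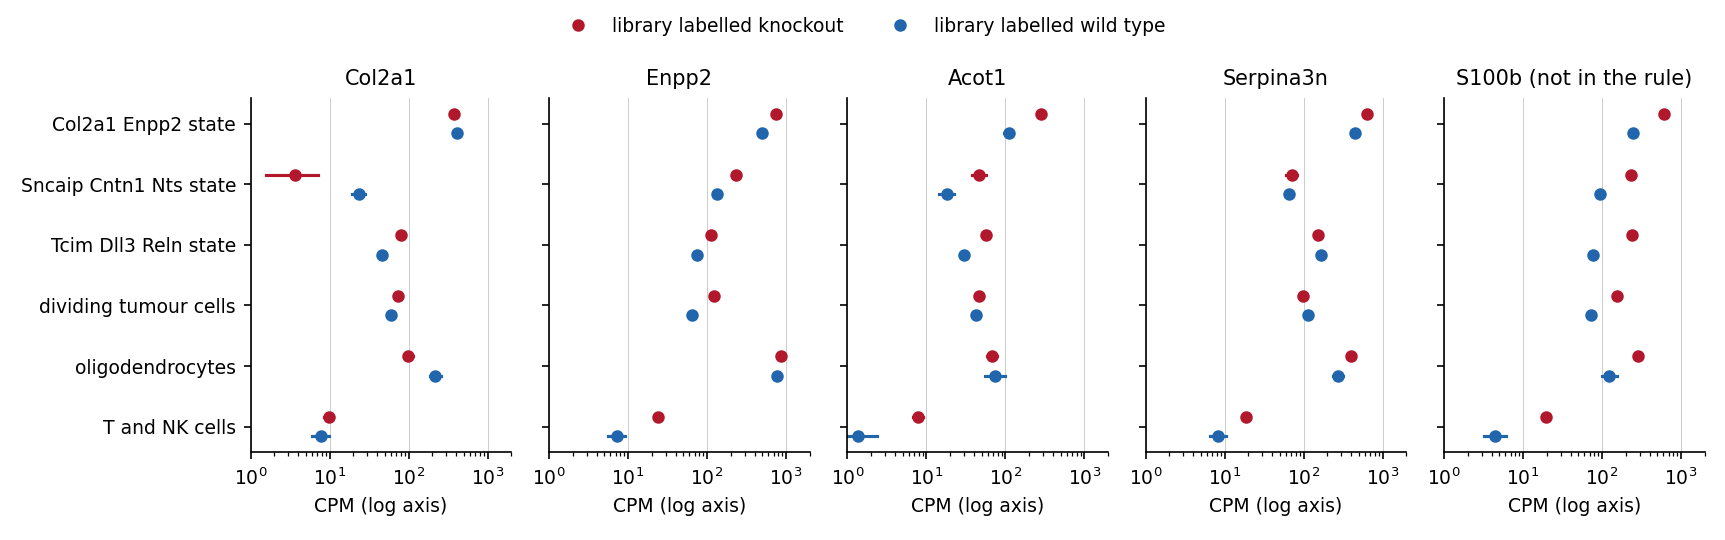
Level of each marker in CPM on a log axis (horizontal) in 6 classes of cells (vertical), red for the library labelled knockout and blue for that labelled wild type. Points are levels of summed UMIs and bars exact Poisson 95% intervals for counting error. The 4 rule genes are high in the state by construction, and S100b, at 611 and 246 CPM, is also highest there among the 6 classes in each library.

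The members were mixed in which gene they carried. All 4 rule genes had a UMI in 222 members (63.4%) under the knockout label and in 35 (43.2%) under the wild type label. Enpp2 was the leading gene in 145 and 31 members, Serpina3n in 90 and 16, Col2a1 in 67 and 29 and Acot1 in 30 and 2, with ties in 18 and 3. Enpp2 was detected in 94.6% and 84.0% of members, Col2a1 in 82.3% and 72.8%, Serpina3n in 84.6% and 84.0%, Acot1 in 85.4% and 71.6%, and S100b in 96.6% and 86.4%. With each cell thinned to 5000 UMIs, which left out 5 and 2 members, S100b was detected in 86.1% and 60.8% of members. It was then detected in 57.6% and 32.3% of the other non-dividing tumour cells. T and NK cells, which should lack it, showed it in 2.87% and 1.35% at that depth, and their full depth was lower, with medians of 8114 and 7297 UMIs.

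The boundary of the state was not sharp. The 4 rule genes together had medians of 15.7 and 13.4 UMIs per 10000 in members, with ranges of 1.79 to 112 and 1.63 to 62.2. Only 2 members and 1 member lay between 1 and 2 per 10000, so the minimum decided few cells. The rival sums decided more. In 55 and 14 members the state sum was under 1.5 times the larger rival, and 64 and 30 non-members missed by less than that factor. S100b was 499 and 192 CPM just inside this edge, and 385 and 205 CPM just outside it. Farther out it was lower: S100b was 95.8 and 48.1 CPM in non-members with under 1 UMI per 10000 of the rule genes. Within the state, S100b was 778 CPM in members above their library's median of the 4 genes and 464 CPM in the others under the knockout label, and 343 and 176 CPM under the wild type label. Among dividing tumour cells 21 and 23 also met the condition on the 4 genes, with 321 and 131 CPM of S100b.

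The state took a larger share of the tumour under the knockout label. It made up 40.6% of 862 non-dividing tumour cells there (exact binomial 95% interval 37.3 to 44.0) and 16.6% of 489 under the wild type label (13.4 to 20.2). The ratio of the shares was 2.45 (1.98 to 3.04). Intervals of ratios of shares are approximate large-sample 95% intervals, not exact ones. Of all tumour cells the share was 35.4% of 989 and 12.5% of 650, a ratio of 2.84 (2.28 to 3.54), and of all kept cells 5.32% and 2.60%. Without host-like cells the share of non-dividing cells was 41.0% and 16.4%. The state rich in Sncaip, Cntn1 and Nts had 9.86% and 29.4%, a ratio of 0.335 (0.262 to 0.427), and that rich in Tcim, Dll3 and Reln had 47.6% and 51.3%, a ratio of 0.927 (0.829 to 1.04). Dividing cells were 12.8% of tumour cells under the knockout label and 24.8% under the wild type label. Shares sum to a whole, so a higher share of 1 state lowers the others, and the animals behind each library are not separated.

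**Figure D2:**
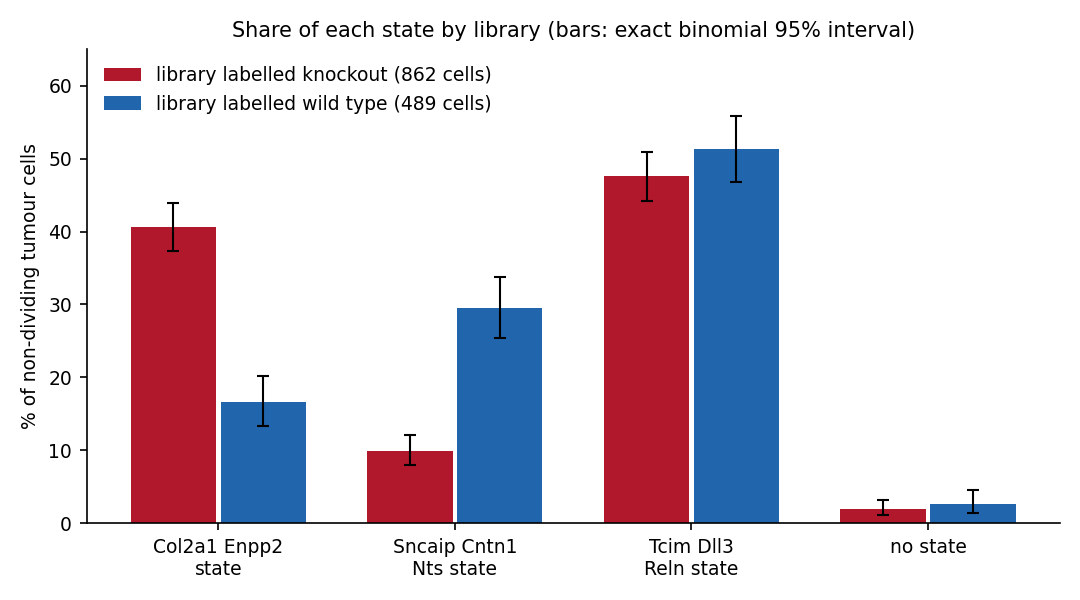
Share of non-dividing tumour cells (vertical, in percent) in each state, red for 862 cells of the library labelled knockout and blue for 489 cells of that labelled wild type, with exact binomial 95% intervals. The Col2a1 Enpp2 state held 40.6% and 16.6%, and the Sncaip Cntn1 Nts state 9.86% and 29.4%.

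To describe the state beyond its rule, UMIs were summed over its cells and over the other non-dividing tumour cells in each library. A gene was called where state cells were at least 1.5-fold higher, or lower, in both libraries. Of 10155 genes outside the rule with at least 100 UMIs in each library, 459 (4.52%) were higher and 315 (3.1%) lower. The median log2 ratio of all these genes was 0.01 and 0.04. Without host-like cells 405 of 9839 genes (4.12%) were higher and 288 (2.93%) lower. The cells were grouped by expression, so these are descriptions of which genes go with the rule genes.

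**Figure D3:**
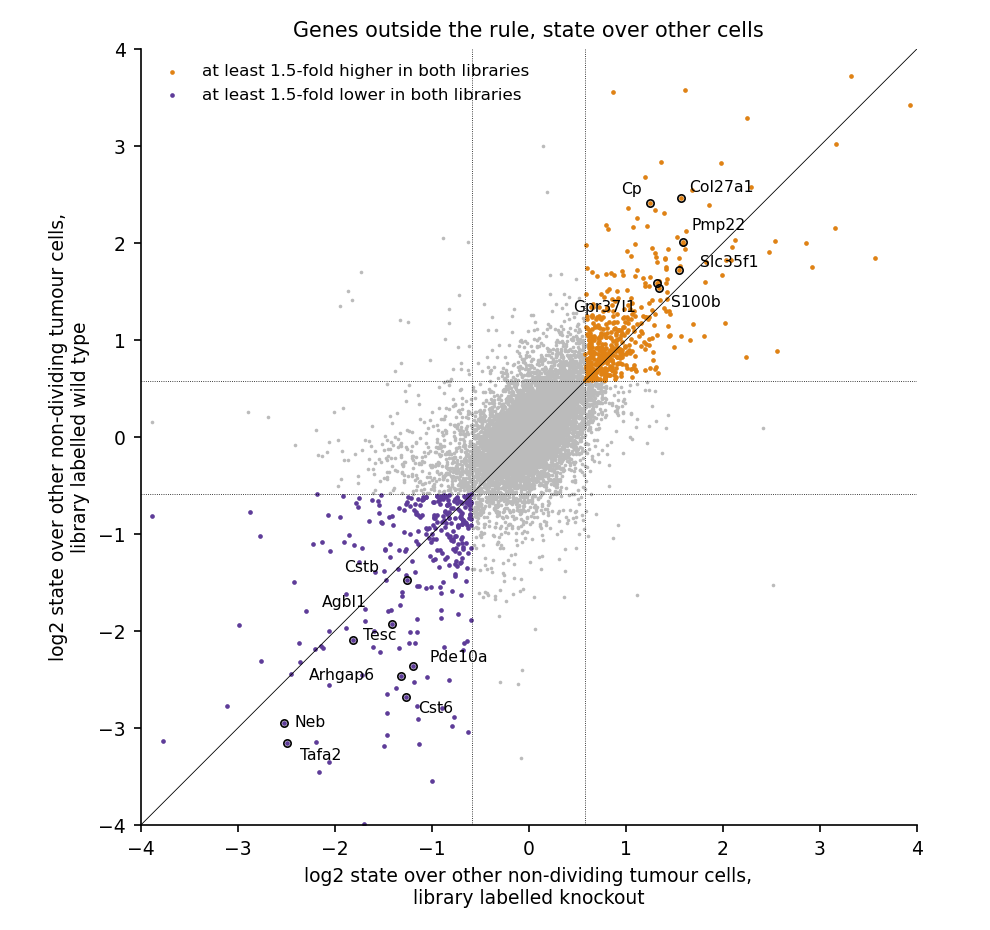
Log2 ratio of state over other non-dividing tumour cells for each gene outside the rule, in the library labelled knockout (horizontal) and in that labelled wild type (vertical). Orange and purple mark the 459 genes higher and 315 lower by at least 1.5-fold in both (dotted lines), circles mark genes named in the text, and 30 of 10155 genes lie beyond the axes. Most genes lie near 0, and S100b, Col27a1 and Cp stand on the high side in both libraries.

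Genes outside the rule were screened for at least 50 CPM in the state and at least 20% of the level of the highest host class, in both libraries. The 12 with the largest ratios among those that passed, ranked by the library where the ratio was nearer 0, are described next. The screen left out genes with larger ratios, such as Apoc1, with log2 ratios of 2.13 and 2.03, and the myelin gene Mbp. Col27a1, a fibrillar collagen of cartilage, had 114 CPM in state cells and 38.3 CPM in the other cells under the knockout label, and 92.4 and 16.7 CPM under the wild type label. Its log2 ratio was 1.57 (1.42 to 1.72) and 2.47 (2.17 to 2.76). Pmp22, a membrane protein of myelinating Schwann cells, had 50.9 and 16.9 CPM, and 54.7 and 13.6 CPM. Tmem117, a membrane protein, had 326 and 120 CPM, and 245 and 64.1 CPM. Each of these genes was higher in the state in both libraries.

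Rgmb, a co-receptor of bone morphogenetic proteins, had 163 CPM in state cells and 61.5 CPM in the other cells under the knockout label, and 118 and 32.9 CPM under the wild type label. Gpr37l1, a receptor of astrocytes, had 160 and 64.0 CPM, and 164 and 54.5 CPM. Cp, which encodes the copper-carrying ferroxidase ceruloplasmin, had 147 and 61.5 CPM, and 115 and 21.5 CPM. The ratio for Cp was larger under the wild type label, at log2 2.42 against 1.26 under the knockout label. Lbh, a transcriptional cofactor, had 481 and 199 CPM, and 261 and 97.7 CPM. The immediate early gene Fosb had 266 and 112 CPM, and 320 and 135 CPM. Slc35f1, Pdzd2 and Tacc1 complete the 12 genes with S100b. The log2 ratios of these 3 genes were between 1.42 and 1.85. Without host-like cells 9 of the 12 were again among the 12 leading genes. Of the other 3, Pmp22 went under the 50 CPM asked of a named gene, with 46.0 CPM in state cells and 14.7 CPM in the other cells under the knockout label, and Lbh and Fosb kept log2 ratios between 1.25 and 1.51.

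The 12 genes with the lowest ratios were taken with the same screen, applied to their levels in the other cells. Among them was Neb, the giant actin-binding protein nebulin. It had 13 CPM in state and 74.8 CPM in other cells under the knockout label, and 26.6 and 204 CPM under the wild type label. Tafa2, a secreted factor of neurons, had 14.1 and 79.0 CPM, and 22.8 and 203 CPM, although 1 cell held 65.1% of its UMIs in the state under the wild type label. Cstb, an inhibitor of cathepsins, had 301 and 720 CPM, and 290 and 804 CPM. Arhgap6, a GTPase-activating protein, had 125 and 312 CPM, and 138 and 762 CPM. The other 8 were Tesc, Grasp, Mdga2, Agbl1, Cst6, Pde10a, Eif4ebp1 and Mgp. The other non-dividing tumour cells pool further states, and under the knockout label some genes were low mainly against 1 of them. There Cstb had 319 CPM in the Sncaip Cntn1 Nts state and 799 CPM in the Tcim Dll3 Reln state. Arhgap6 had 1207 and 172 CPM, and Mdga2, at 27.7 CPM in state cells, had 520 and 5.10 CPM. Neb, with 81.1 and 74.7 CPM, was low against both. Under the wild type label Cstb, Arhgap6, Mdga2 and Neb were below both states. Of these 12 genes, 11 were again among the lowest 12 without host-like cells. The exception was Mgp, whose log2 ratio was -6.35 and -4.26 with all cells but 0.22 and 0.21 without host-like cells.

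The Notch list had the highest medians in both libraries among the 12 plotted lists. Of 9 measured genes 6 were higher and none lower, with a median log2 ratio of 1.02 under the knockout label and 1.06 under the wild type label. Notch receptors are cut on contact with ligands on a neighbouring cell and then switch on Hes and Hey genes, a signal that keeps neural progenitors undifferentiated. Among receptors, Notch1 had 97.3 CPM in state cells and 49.4 CPM in the other cells under the knockout label, and 68.0 and 32.7 CPM under the wild type label. Notch2 had 46.6 and 22.2 CPM, and 29.7 and 13.5 CPM. The ligand gene Jag1 had 33.5 and 16.6 CPM, and 26.5 and 12.5 CPM. The ligand gene Dll1 was not called, with 21.2 and 13.1 CPM, and 10.6 and 9.23 CPM. Among targets, Hes1 had 84.4 and 35.8 CPM, and 57.4 and 19.4 CPM. Hes5 had 65.5 and 26.1 CPM, and 32.4 and 15.6 CPM. Nrarp, a feedback inhibitor, had 32.1 and 9 CPM, and 27.1 and 7.73 CPM. Receptors, a ligand and targets were thus higher in the state in both libraries, while Hes6 and Rfng lay within 1.5-fold. Without host-like cells the same count held, with medians of 1.18 and 1.18.

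Of 13 measured cartilage matrix and SOX genes 4 were higher and none lower, with medians of 0.36 and 0.48. The 4 were Col27a1, Col9a2, Cnmd and Snorc. Col9a2, a chain of type IX collagen, which coats type II fibrils, had 399 CPM in state cells and 224 CPM in the other cells under the knockout label, and 373 and 164 CPM under the wild type label. Cnmd, which encodes chondromodulin, an inhibitor of vessel growth in cartilage, had 151 and 72.9 CPM, and 313 and 172 CPM. Col11a1, a minor chain of cartilage fibrils, was abundant in all tumour cells, with 2360 and 2012 CPM, and 2332 and 1671 CPM. Sox6 was likewise abundant throughout, with 2562 and 1990 CPM, and 1917 and 1452 CPM. The collagen partners of Col2a1 were therefore made outside the state too, at levels within 1.5-fold for Col9a1 and Col11a1 in both libraries.

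Other matrix genes gave 4 higher and 4 lower of 19 measured genes. The basement membrane chain Col4a5, Sparc, Aebp1 and the proteoglycan gene Vcan were higher. Vcan had 119 CPM in state cells and 69.6 CPM in the other cells under the knockout label, and 180 and 66.3 CPM under the wild type label. Without host-like cells 11 genes were measured, and these 4 were higher and none lower.

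Antigen presentation and interferon genes were on the high side. Of 7 MHC class II genes 5 were higher and none lower, with medians of 0.75 and 0.82. H2-Aa had 1453 CPM in state cells and 713 CPM in the other cells under the knockout label, and 586 and 251 CPM under the wild type label. Ciita, the master activator of class II genes, had 130 and 67.2 CPM, and 45.1 and 25.7 CPM. Of 28 interferon response genes 8 were higher and none lower, with medians of 0.39 and 0.51, among them Iigp1, a GTPase that attacks vacuoles of parasites, at 2593 and 1371 CPM, and 1256 and 582 CPM. Of 15 class I presentation genes 2 were higher, H2-D1 and H2-T23, with medians of 0.44 and 0.35, and none was called without host-like cells. Macrophage, monocyte and microglia markers, which come with class II RNA, summed to 85.0 CPM in state cells and 75.1 CPM in the other cells under the knockout label, and to 78.6 and 89.8 CPM under the wild type label. Of the 5 class II genes called, 1, H2-DMa, had at least 20% of the level of the highest host class in both libraries. The other 4 did not. Whether RNA from host cells was a source of these values was not tested.

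Oligodendrocyte lineage genes moved with the host-like cells. Of 16 measured genes 7 were higher and none lower, with medians of 0.72 and 0.66. Without host-like cells 3 of 14 were higher, with medians of 0.33 and 0.59. Mbp, a myelin gene, had 157 CPM in state cells and 36.7 CPM in the other cells under the knockout label, and 328 and 84.2 CPM under the wild type label. Its log2 ratio was 2.09 and 1.96, and 1.41 and 1.18 without host-like cells. Pdgfra, a receptor of oligodendrocyte precursors, had 24.7 and 11.8 CPM, and 27.6 and 17.0 CPM. Sox10, the lineage's regulator, differed by less than 1.5-fold, with 329 and 262 CPM, and 201 and 183 CPM, and Olig2 was not higher, with 100.3 and 170 CPM, and 151 and 221 CPM.

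With all members, few genes were called in the lists of acyl-CoA thioesterase and PPAR target genes, serpins, lysophosphatidic acid genes and S100 genes. Of all genes outside the rule only 4.52% were higher and 3.1% lower, so these short lists cannot show whether they followed the rule genes or S100b. None of 19 acyl-CoA thioesterase and PPAR target genes and none of 6 serpins was called, and of 9 lysophosphatidic acid receptor and phosphatase genes only Enpp5 was higher, or 3 of 8 without host-like cells. Of 7 S100 genes other than S100b, S100a10 was lower and none higher, with 81.2 CPM in state cells and 141 CPM in the other cells under the knockout label, and 117 and 243 CPM under the wild type label. Larger parts of the next lists were called. Of 15 genes of reactive astrocytes and the acute phase, 5 were higher, namely Cp, Serping1, Fbln5, Socs3 and Cebpd. In that list 3 were lower, namely Timp1, Cd44 and Fkbp5. Of 20 astrocyte genes 4 were higher and 2 lower, or 5 and 1 of 19 without host-like cells, and Gfap, with 32 and 4 UMIs in the state, was too rare to be measured. Of 7 lipoprotein and lipid export genes 3 were higher and none lower, or 2 of 6 higher without host-like cells. Among them Apoc1, an apolipoprotein gene, had 133 and 30.5 CPM, and 19.6 and 4.80 CPM.

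Genes of the cell cycle and of glycolysis were on the low side. Of 22 S phase genes 3 were lower in both libraries, namely Cdc6, Dtl and Ccne2, and none higher. Their median log2 ratio was -1.31 under the knockout label and -0.25 under the wild type label. Without host-like cells 2 were lower, Dtl and Ccne2, with medians of -1.28 and -0.11. Of 18 mitosis genes outside the rule 4 were lower, with medians of -0.97 and -0.26, or 3 without host-like cells, with medians of -1.05 and -0.11. The rule removes cells rich in 4 mitosis genes, from state and other cells alike. Of 16 hypoxia and glycolysis genes 3 were lower, with medians of -0.33 and -0.47. The glucose transporter gene Slc2a1 had 54.2 CPM in state cells and 109 CPM in the other cells under the knockout label, and 85.5 and 180 CPM under the wild type label. Pfkp and Vegfa were also lower, and without host-like cells Slc2a1 and Vegfa were. None of 19 sterol synthesis genes was called, with medians of -0.09 and 0.04. Of 13 genes of neuronal differentiation and axon growth, 4 were lower, among them Sox11, Gap43 and Dpysl3, and none higher, while without host-like cells 3 of 11 were lower. Of 14 immediate early and heat shock genes, Fosb and Jun were higher and none lower.

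Of the 4 genes of the tumour gate, Nes was at least 1.5-fold lower in the state in both libraries. Without host-like cells its log2 ratios were -0.93 and -0.50, so under the wild type label it stayed within 1.5-fold. Nes, which encodes the progenitor filament protein nestin, had 92.9 CPM in state cells and 172 CPM in the other cells under the knockout label, and 105 and 158 CPM under the wild type label. Sox2, a stem cell transcription factor, had 245 and 265 CPM, and 305 and 275 CPM. Hmga2, a chromatin protein of fetal and tumour cells, had 375 and 555 CPM, and 159 and 371 CPM. Met, the receptor of hepatocyte growth factor, had 151 and 103 CPM, and 114 and 64.4 CPM. Hmga2, with log2 ratios of -0.56 and -1.23, was lower and Met higher in the state, but neither passed 1.5-fold in both libraries. The gate had chosen the cells by these genes.

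**Figure D4:**
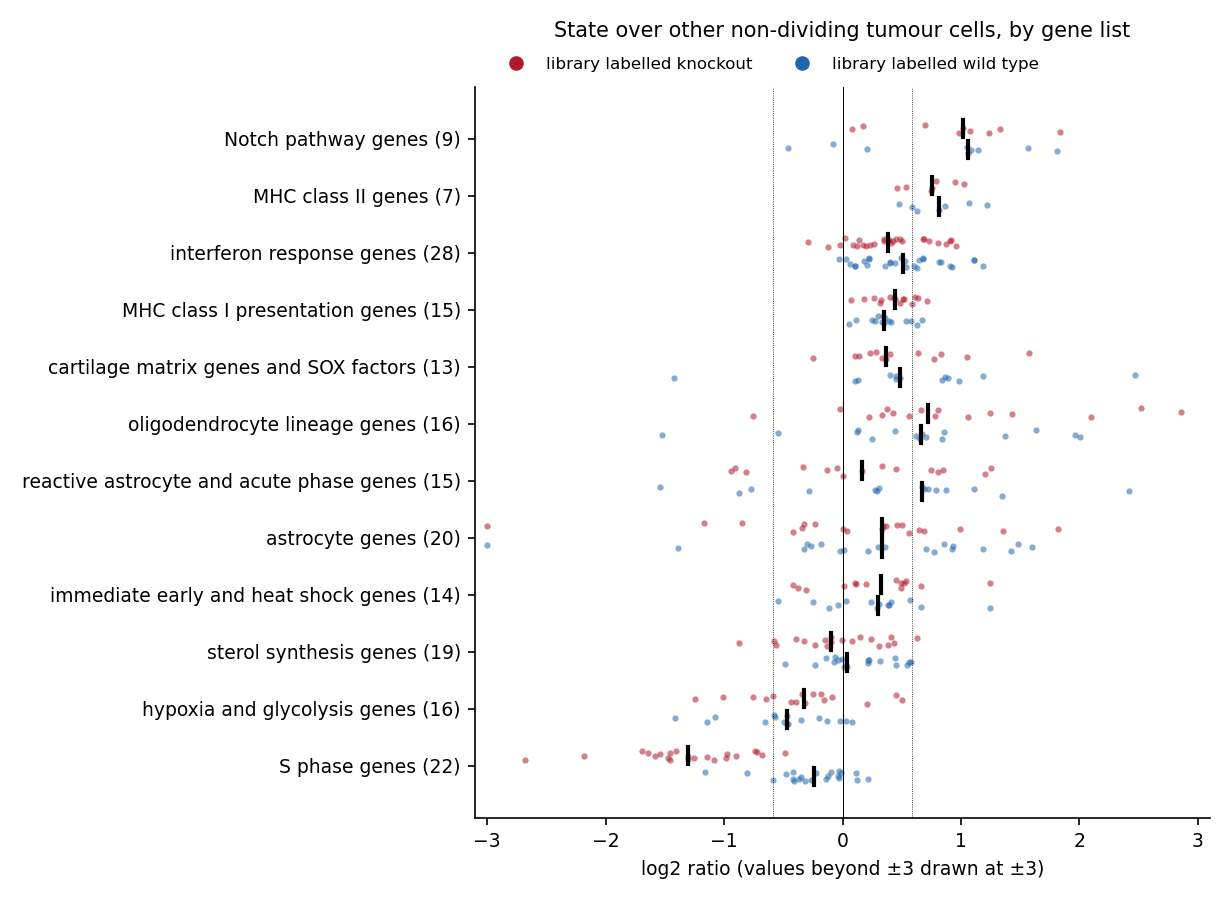
Log2 ratio of state over other non-dividing tumour cells (horizontal) for the measured genes of 12 lists (vertical, number in brackets), red for the library labelled knockout and blue for that labelled wild type. Black bars are medians and dotted lines mark 1.5-fold. Notch genes have the highest medians, 1.02 and 1.06, and S phase genes the lowest under the knockout label, -1.31.

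Across the 862 and 489 non-dividing tumour cells, levels per cell were compared to find the genes most like 3 of the markers. Genes were ranked by the smaller of the values in the 2 libraries. By that rule Col2a1 was most like Col9a2, with a Pearson correlation of 0.54 under the knockout label and 0.50 under the wild type label, then Rgmb, S100b, Focad and Col27a1, although under the knockout label alone Rgmb, at 0.56, and Lbh, at 0.57, were above Col9a2. Enpp2 was most like Jam3, an adhesion molecule, at 0.49 and 0.46, then H2-Aa, S100b, the complement gene C4b and H2-T23. S100b was most like Erbb3, a neuregulin receptor, at 0.51 and 0.48, then Polr2l, a subunit of RNA polymerases, at 0.60 and 0.47. The cells of a library share depth and preparation, and these correlations are descriptions.

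The host genotype was the contrast of the study, and it was read within the state as the library labelled knockout over that labelled wild type. Of 9390 genes measured in state cells 756 (8.05%) were at least 1.5-fold higher and 770 (8.2%) lower. In the other non-dividing tumour cells 810 of 11595 genes (6.99%) were higher and 713 (6.15%) lower. Without host-like cells the state gave 761 of 9115 higher (8.35%) and 768 lower (8.43%).

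Among the markers, S100b was 611 CPM under the knockout label and 246 CPM under the wild type label in state cells, a log2 ratio of 1.31 (1.17 to 1.45). In the other cells the ratio was 1.51 (1.41 to 1.60). Acot1 had a ratio of 1.37 (1.16 to 1.58) in the state and 1.1 in the other cells. Enpp2 had ratios of 0.59 and 0.46, Serpina3n 0.51 and 0.13, and Col2a1 -0.12 and 0.80. S100b, Acot1 and Enpp2 thus passed 1.5-fold in the state, Serpina3n did not, and Col2a1 was nearly level there.

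Among genes that passed the screen for level and host class, D5Ertd615e, a long noncoding RNA gene, had the highest ratio in the state. It was 4.24, against 1.01 in the other cells. D5Ertd615e had 70.1 CPM in state cells under the knockout label and 3.72 CPM under the wild type label, resting on 588 and 7 UMIs. In the other cells it had 74.1 and 36.8 CPM. Polr2l had 1710 CPM in state cells under the knockout label and 422 CPM under the wild type label, a log2 ratio of 2.02 (1.91 to 2.12), and 2.17 in the other cells. Apoc1 had 133 and 19.6 CPM, a ratio of 2.76 in the state and 2.67 outside it. Usp50 had 249 and 74.3 CPM, and ratios of 1.74 and 2.10. Polr2l, Apoc1 and Usp50 stood higher under the knockout label in both sets of cells.

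Of the other leading genes several belong to immune defence. Gbp4, a guanylate-binding GTPase induced by interferon, had 502 CPM in state cells under the knockout label and 200 CPM under the wild type label, a ratio of 1.33 (1.18 to 1.49), and 1.56 in the other cells. Ifit3b had 82.7 and 32.4 CPM, Gbp10 54.4 and 20.2 CPM, and Trim12a 151 and 58.9 CPM. Reads of Gbp, Ifit3 and Trim12 genes may be split uncertainly between close copies. Ciita, Plce1 and Mill2, a relative of MHC class I, were also among the 12.

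The list of leading lower genes was mostly set by single cells. In 9 of the 12 genes 1 cell held over 50% of the UMIs of the state under the wild type label, as in Mmp3 with 665 UMIs in 1 cell, Cldn5, a tight junction gene of endothelium, with 99.7% of its UMIs in 1 cell, and Dcn, a fibroblast proteoglycan gene, with 98.1%. The other 3 were Opcml, Rrm2 and Id1, and these alone remained in the list without host-like cells. Opcml, an adhesion molecule of neurons, had 15.9 CPM in state cells under the knockout label and 282 CPM under the wild type label, a log2 ratio of -4.15 (-4.44 to -3.88). It was -2.73 in the other cells and -4.47 in the state without host-like cells. Id1, an inhibitor of differentiation factors and a target of bone morphogenetic proteins, had 19 and 151 CPM, and ratios of -3 with all members, -2.60 without the host-like ones and 0.070 when cells were thinned to 5000 UMIs, so its direction depended on that setting. Rrm2, a subunit of ribonucleotide reductase, had 3.82 and 52.6 CPM, a ratio of -3.78 in the state and -0.89 in the other cells.

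Sterol synthesis genes were low under the knockout label in both sets of tumour cells. Of 17 measured in the state 16 were lower and none higher, with a median log2 ratio of -1.43, and in the other cells 18 of 19 were lower, with a median of -1.28. Without host-like cells 15 of 16 were lower in the state. The pathway builds cholesterol from acetyl-CoA under the control of Srebf2. Near its entry Hmgcs1 had 13.7 CPM in state cells under the knockout label and 65.3 CPM under the wild type label. Fdps, which makes farnesyl pyrophosphate, had 33.3 and 140 CPM. Further along, Sqle, which oxidises squalene, had 18.6 and 89.2 CPM, and Cyp51, which removes a methyl group from lanosterol, had 22.7 and 95.1 CPM. Enzymes from start to end of the pathway were low together.

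Cell cycle genes were also lower under that label. Of 18 S phase genes measured in the state 17 were lower, with a median of -1.17, and in the other cells 4 of 22 were lower, with a median of -0.39. Of 11 mitosis genes 11 were lower in the state, with a median of -1.68, and 17 of 19 in the other cells, with a median of -0.72. Without host-like cells 9 of 9 were lower in the state and 13 of 19 in the other cells. Mcm5, of the replication helicase, had 15.7 CPM in state cells under the knockout label and 62.1 CPM under the wild type label, and 49.3 and 64.0 CPM in the other cells. Mki67, the gene of the Ki-67 antigen, had 11.9 and 48.9 CPM in the state, and 32.8 and 62.4 CPM in the other cells. The difference between state and other cells in this contrast was not tested.

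Interferon and antigen presentation lists held higher genes and no lower one under the knockout label in both sets of cells, and the difference between the sets was not tested. Of 28 interferon response genes 15 were higher in the state and none lower, with a median of 0.67, against 0.65 in the other cells. Iigp1 had 2593 CPM in state cells under the knockout label and 1256 CPM under the wild type label. Of 7 class II genes 7 were higher, with a median of 1.06, against 1.37 in the other cells, and H2-Aa had 1453 and 586 CPM in the state. Of 15 class I presentation genes 9 were higher, with a median of 0.60, against 0.54 in the other cells, or 11 without host-like cells, and H2-K1, a heavy chain, had 2224 and 1384 CPM. The 13 markers of macrophages, monocytes and microglia summed to 85.0 and 78.6 CPM in state cells. Of these, 4 were measured there, all 4 were higher under the knockout label, with a median of 1.30, and their part in these values was not tested.

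Cartilage and oligodendrocyte genes were lower or near level. Of 12 cartilage and SOX genes 1 was higher, Sox10, and 4 lower, with a median of -0.37 in the state and 0.15 in the other cells, and 3 were lower without host-like cells. Col9a1, a chain of type IX collagen, had 123 CPM in state cells under the knockout label and 427 CPM under the wild type label, and Cnmd had 151 and 313 CPM. Of 18 oligodendrocyte lineage genes 2 were higher and 9 lower, with a median of -0.52, against -0.56 in the other cells, and without host-like cells 2 of 14 were higher and 7 lower. The myelin gene Mog had 44.1 and 147 CPM. The sum of oligodendrocyte markers in the state, 865 and 1929 CPM, moves with these values. Of 9 Notch genes 3 were higher and none lower, namely Notch2, Dll1 and Hes5, with a median of 0.52, against 0.51 in the other cells.

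**Figure D5:**
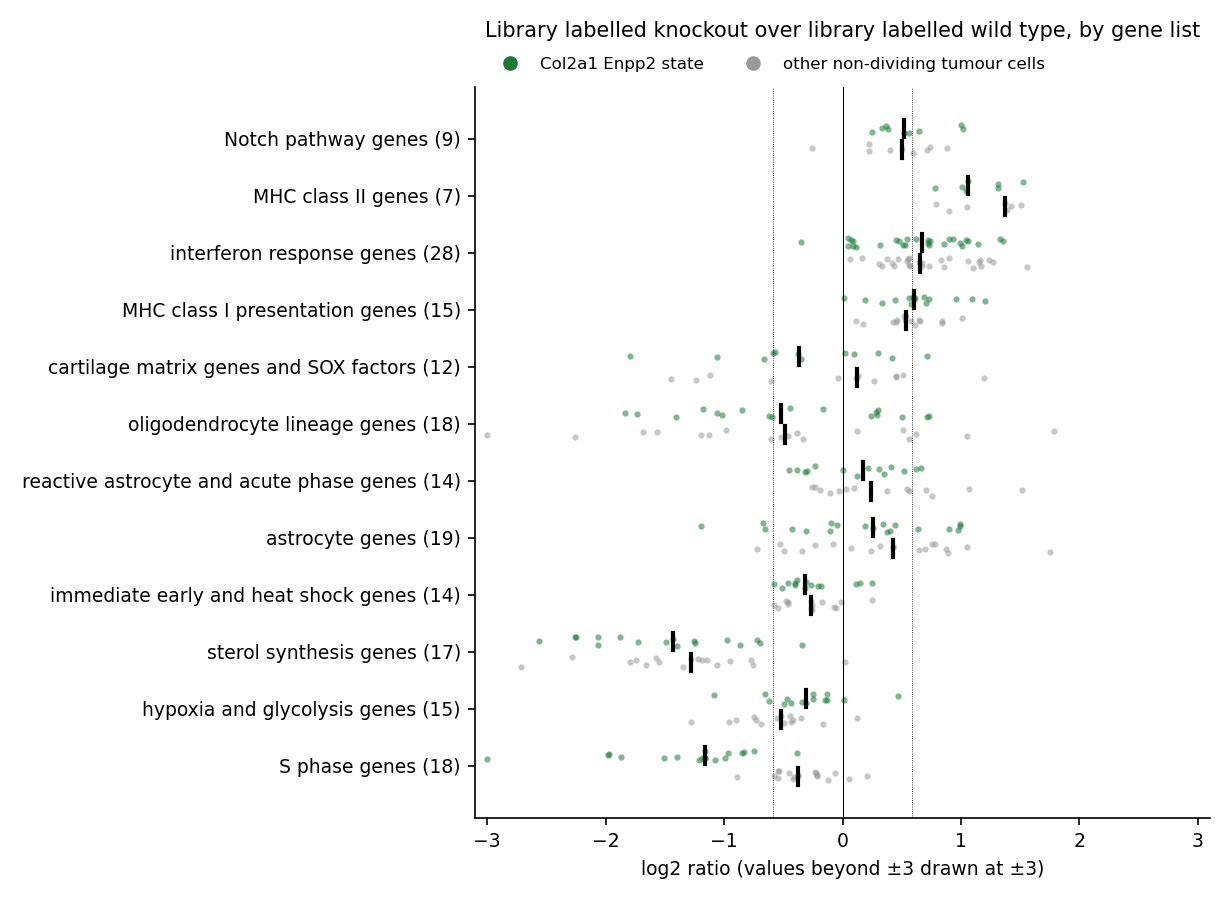
Log2 ratio of knockout label over wild type label (horizontal) for the genes of 12 lists measured in the state (vertical, number in brackets), green in state cells and grey for the same genes in the other non-dividing tumour cells. Black bars are medians and dotted lines mark 1.5-fold. Sterol synthesis genes are low in both, while S phase genes are lower in the state, with a median of -1.17.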

How the data were processed

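Each library was deposited as a matrix of UMI counts per gene and barcode, made by the authors with Cell Ranger 7.1.0 on mm10, with Seurat 5.0.2 also named, per the submitters' processing notes. The deposited gene list joins 36601 human and 32285 mouse genes, and mouse genes were used here, with genes of the same symbol summed. Barcodes were filtered at 500 genes and 10% mitochondrial UMIs, and cells were gated by the rule given above. UMIs were summed over the cells of a group, expressed as CPM of mouse UMIs, and compared as ratios with exact conditional 95% intervals, which cover counting error only. With 1 library per group no test across samples was possible, and a gene was called at 1.5-fold with at least 100 UMIs.

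Named genes were the 12 with the largest ratio in each direction (for the state, ranked by whichever library's ratio was nearer 0), with at least 50 CPM on the higher side and at least 20% of the level of the highest host class of at least 50 cells. A gene that this rule names is not reported here. Classes with fewer cells, such as endothelial cells and astrocytes, were not covered by that screen. The members and gene lists were chosen with earlier results of these data known. No doublets were removed for the values reported; Scrublet's automatic threshold marked 2.52% and 0.257% of kept cells, so as an alternative the expected number of highest scores, 346 and 77 cells, was removed, 7 and 1 of them in the state. Gene positions are from GENCODE M21, which held 32129 of 32245 symbols. The calculations were tested on simulated data with counting error only, which do not cover the spread between cells. Software was scanpy 1.11.5, scipy 1.17.1, matplotlib 3.10.9, numpy 2.4.6 and pandas 2.3.3 under Python 3.11.15.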

Additional observations from a re-analysis of the deposited data

Results flagged for a closer look

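The following genes had effects of opposite direction in the 2 libraries or in the 2 sets of cells, and none of these differences was tested. Mdga2, an adhesion molecule of neurons, had a log2 ratio of knockout label over wild type label of 0.66 in the state and -0.73 in the other non-dividing tumour cells. Of the states pooled in those other cells, the Sncaip Cntn1 Nts state had 0.80 and the Tcim Dll3 Reln state -2.84. In the state under the wild type label 1 cell held 63.6% of the Mdga2 UMIs. The log2 ratio of state over other cells was -3.27 under the knockout label and 3.72 under the wild type label for Dcn, -3.78 and 4.96 for Spp1, and -1.63 and 5.71 for Spock2. For these 3 genes 1 cell held 98.1%, 99.3% and 98.8% of the UMIs of the state under the wild type label, and without host-like cells none of the 3 had more than 10 UMIs in the state of either library. The ratio of state over other cells was -1.24 and 1.19 for Flt1, -1.38 and 0.68 for Id1, and -0.82 and 1.18 for Vwa1. Here 1 cell held 80.1%, 30.2% and 53.8% of those UMIs of Flt1, Id1 and Vwa1. Without host-like cells the ratios were -0.68 and -0.52 for Flt1, so that its directions no longer differed, -1.33 and 0.32 for Id1, and -1.95 and 0.44 for Vwa1. The ratio of knockout label over wild type label was -7.22 in the state and 1.52 in the other cells for Spp1, and -5.66 and 1.68 for Spock2. UMIs of human genes, which no comparison used, made up 0.0255% of the UMIs of state cells under the knockout label and 0.0185% under the wild type label.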

How the results depend on the processing

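No paired analysis was possible because each group is 1 library. The log2 ratio of the state's share of non-dividing tumour cells, 1.29 as reported, was between 1.14 and 1.36 under 8 other settings, and that of all tumour cells, 1.51 as reported, between 1.30 and 1.59. Of the gene counts, 514 genes were lower in the state when 5 UMIs per 10000 of the rule genes were asked, and 481 when cells were weighted alike. With cells thinned to 5000 UMIs, 81 genes were higher and 102 lower in the state, 218 higher and 121 lower under the knockout label in the state, and 309 and 299 in the other cells. With 30 UMIs asked of a gene in place of 100, the counts were 710 and 525 in the state, 1354 and 1390 by label in the state, and 1520 and 1149 by label in the other cells. Fewer or more genes are measured under these settings. Leaving out host-like cells, chosen after seeing the data, gave Mgp ratios of 0.22 and 0.21 and Spock2 0.084 by label; Spp1 was 0.46 by label with no Ptprc UMI allowed, and Id1 0.070 after thinning. Another 10 values could not be given because a gene had no UMI left. The cause of these turns was not tested.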
